A study of Mus musculus with 12 samples.

Results

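The 5′ fragments of the glutamate tRNAs were taken from the table of tRNA-derived small RNAs (tsRNAs) of whole mouse liver. A member was a distinct read sequence that the table listed only under mature nuclear tRNA-Glu-CTC or tRNA-Glu-TTC and that began at the first or second base of the tRNA, whatever its length. This rule, which used no comparison of samples, gave 2625 of the 87699 distinct sequences in the table and 197836 of its 1705883 reads, or 11.6%. The livers came from male B6D2F1/Crl mice with an age label of 8 to 12 weeks. NS-KO mice carried a CRISPR/Cas9 deletion in NSun2, and WT mice were wild type. Day 0 (D0) livers had no injury. Day 3 (D3) livers were taken after 1 intraperitoneal injection of carbon tetrachloride, diluted with corn oil to 40% and given at 2 ml per kg, and day 27 (D27) livers after repeated injections. Each of the 6 groups, NS-KO and WT at D0, D3 and D27, had 2 libraries, from 2 mice. The deletion was made in the mouse line, not in a chosen liver cell type. The counts hold tRNA reads alone, so neither NSun2 mRNA nor liver marker mRNAs could be checked in them. In whole liver, fewer cells that hold a fragment and less of it per cell cannot be told apart.

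NSun2 is a methyltransferase that makes 5-methylcytosine at several positions of many tRNAs. In mouse brain and human cells that lack it, unmethylated tRNAs are cut by the ribonuclease angiogenin and 5′ fragments build up. Angiogenin cuts in the anticodon loop, and the 5′ piece, called a 5′ tiRNA, carries the D arm and one side of the anticodon stem. The 5′ tiRNAs of the glutamate and glycine tRNAs are abundant in mouse liver, serum and sperm. Glutamate tRNAs bring glutamate to the ribosome, and their anticodons, CTC and TTC, read the codons GAG and GAA.

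Glu-TTC reads came mostly from tRNA-Glu-TTC-1-1 and tRNA-Glu-TTC-2-1, whose first 40 bases are shown because the place where a fragment ends decides its class. Capitals mark the anticodon, at positions 34 to 36 counted from 1 at the 5′ end of the tRNA. The letters are those of the deposited table, written as DNA, and the genes are those of RefSeq on GRCm38.p6.
tRNA-Glu-TTC-1-1: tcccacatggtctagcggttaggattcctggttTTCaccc
tRNA-Glu-TTC-2-1: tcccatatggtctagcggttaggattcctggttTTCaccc
tRNA-Glu-TTC-1-1 lies at chr7:58399315-58399386 (n-TEttc7) and tRNA-Glu-TTC-2-1 at chr1:34434812-34434883 (n-TEttc1). Each is a tRNA gene, and identical gene copies share one entry in the table, so a read names a sequence and not a locus. Within the first 33 bases they differ by C6T.

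Glu-CTC supplied most of the reads. Sequences listed only under Glu-CTC held 167430 reads (84.6%, 1273 sequences), those only under Glu-TTC 27400 reads (13.8%, 1288 sequences), and those under both 3006 reads (1.52%, 64 sequences). tRNA-Glu-CTC-1-1 alone held 165375 reads, tRNA-Glu-TTC-1-1 18264, tRNA-Glu-TTC-2-1 8254 and tRNA-Glu-TTC-3-1 842. A few sequences dominated: the 10 most read held 60.7% of the reads, and 107 sequences seen in all 12 libraries held 89.2%. At the other end 878 sequences had 1 read and 2035 had fewer than 10. Fragments that began at the second base numbered 139 (543 reads), and 115 sequences that began at the third (377 reads) lay just outside the rule. Another 34 sequences from the 5′ end of a glutamate tRNA (9106 reads) were not members because a tRNA of another amino acid was listed too.

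The authors' subtypes split the family by length. tRF-5c, of 28 to 32 nt, held 111165 reads (56.2%). tiRNA-5, of 34 nt, held 16976 reads (8.58%). The short tRF-5a (14 to 16 nt) and tRF-5b (22 to 24 nt) held 748 and 55 reads. The remaining 68892 reads (34.8%) were listed as Other, a class that here includes the fragments of 33 and 35 nt next to tiRNA-5.

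The most read Glu-TTC member was the exact 34-nt fragment of tRNA-Glu-TTC-1-1, with 4412 reads. It is printed, with bases from position 30 onward in capitals, because it was lower in NS-KO livers in the comparison of genotypes.
Glu-TTC 34 nt: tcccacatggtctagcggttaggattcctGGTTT
The fragment ends with the first base of the anticodon, and the table placed it among the tiRNA-5.

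Glutamate 5′ fragments took a smaller share of all tRNA reads in NS-KO livers, and a larger share of the nuclear 5′ fragments. Of all tRNA reads they made up 7.70 and 6.95% (D0), 9.27 and 5.51% (D3), and 11.1 and 6.58% (D27) in NS-KO livers, against 12.0 and 12.1% (D0), 6.73 and 12.6% (D3), and 14.9 and 17.4% (D27) in WT livers. The genotypes overlapped at D3, where WT replicate 1 had the lowest WT share, and not at D0 or D27. The share averaged 7.85 ± 2.03% in NS-KO livers and 12.6 ± 3.56% in WT livers (SD, n = 6 each), a difference of -4.76 percentage points (two-sided exact permutation of genotype within days, p = 0.0185, where 0.00926 is the smallest p these libraries can give).

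The direction depended on what the reads were set against. The 5′ fragments of Gly-GCC and Gly-CCC, another abundant group of 5′ fragments, share these totals, and their own level differed by genotype. Those listed under both averaged 98033 CPM in NS-KO livers (69177 to 133364) and 458776 CPM in WT livers (274956 to 584653). Those of Gly-GCC alone averaged 29798 CPM in NS-KO livers and 46401 CPM in WT livers. Gly-CCC alone went the other way, with 13951 CPM in NS-KO livers and 3939 CPM in WT livers. Of the reads outside these Gly fragments, glutamate 5′ fragments held 9.26% in NS-KO livers and 27.4% in WT livers, a difference of -18.2 points (exact permutation p = 0.0185). Of the reads of mature nuclear tRNAs they held 16.8% in NS-KO livers and 15.4% in WT livers (difference 1.38 points, exact permutation p = 0.481). Of the nuclear 5′ fragments alone they held 27.3 ± 4.80% in NS-KO livers and 17.9 ± 2.85% in WT livers (SD, n = 6 each), 9.42 points higher in NS-KO (exact permutation p = 0.00926). On that scale the NS-KO libraries lay above both WT libraries at each of D0, D3 and D27, except that NS-KO D3 replicate 1, at 21.0%, lay within the range of WT libraries of other days.

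**Figure D1:**
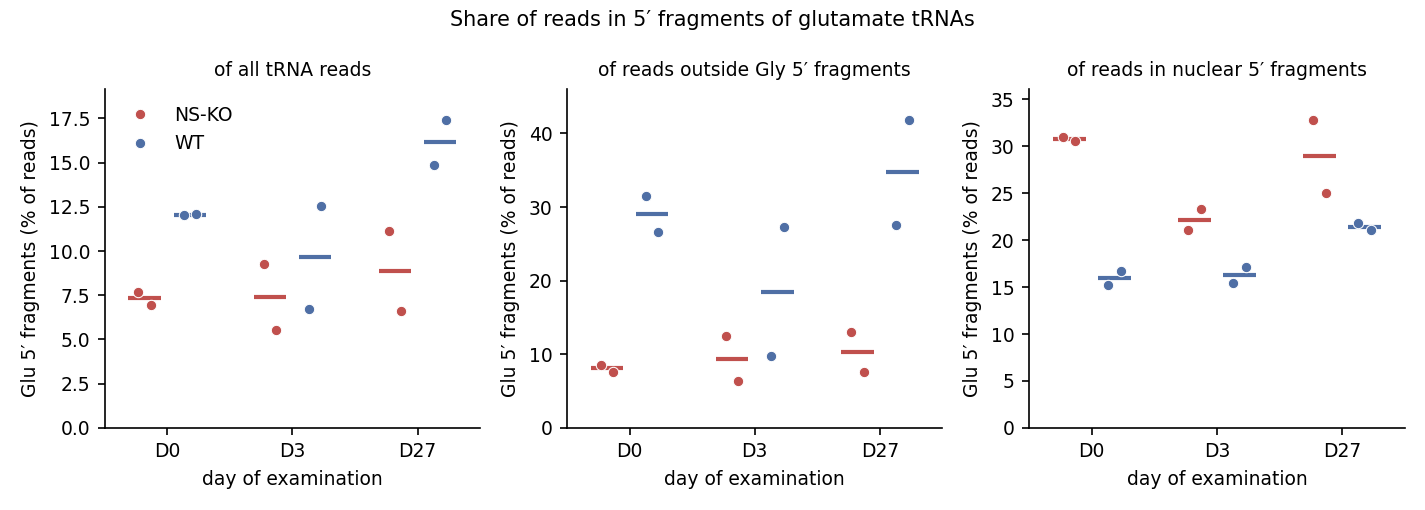
Each panel plots 1 of the shares of reads (percent) held by glutamate 5′ fragments, by genotype and day, with a point for each library and a bar for the mean of 2 libraries. NS-KO points lie below WT points at D0 and D27 as a share of all tRNA reads, and above them as a share of nuclear 5′ fragments.

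Within the family no difference in the proportions of the isodecoders passed the test. Glu-CTC alone supplied 82.6 ± 2.19% of glutamate 5′ reads in NS-KO livers and 82.3 ± 7.94% in WT livers (SD, n = 6 each; difference 0.25 points, exact permutation p = 0.963), and Glu-TTC alone 15.7% in NS-KO livers and 15.9% in WT livers. The spread of WT livers came mostly from D3 replicate 1, where Glu-TTC held 29.0%. None of 10 measures of the make-up passed Benjamini-Hochberg adjustment over the 10. The closest was the share of reads that began at the second base, with 0.440 ± 0.072% in NS-KO livers and 0.228 ± 0.056% in WT livers and no overlap between the 6 and 6 libraries (exact permutation p = 0.00926, adjusted p = 0.0926).

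The ends of the fragments fell before, inside and after the anticodon. Reads ending at position 31 made up 27.3 ± 11.6% in NS-KO livers and 37.1 ± 6.24% in WT livers (SD, n = 6 each), and those ending at 33, right before the anticodon, 21.8 ± 6.24% in NS-KO livers and 22.6 ± 5.93% in WT livers. Both ranges overlapped. Ends at position 36, the last base of the anticodon, were picked out after all ends had been seen: they made up 3.87 to 9.04% of glutamate 5′ reads in NS-KO livers and 0.593 to 2.64% in WT livers, with means of 6.39% in NS-KO livers and 1.22% in WT livers (exact permutation p = 0.00926, adjusted p = 0.111 over 12 measures). Fragments ending at 39 made up 5.94% in NS-KO livers and 2.17% in WT livers, with overlapping ranges (exact permutation p = 0.0556). Mean length was 32.5 ± 0.483 nt in NS-KO livers and 31.8 ± 0.420 nt in WT livers (exact permutation p = 0.0463, adjusted p = 0.154 over 10 measures).

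**Figure D2:**
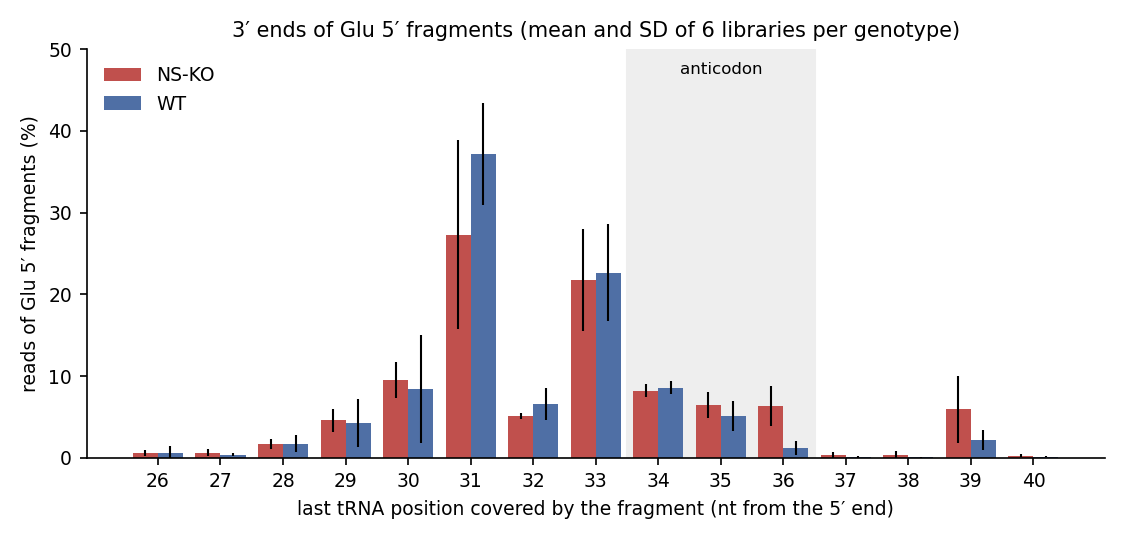
Percent of glutamate 5′ reads by the position where they end, counted from the 5′ end of the tRNA, with a bar for the mean and a line for the SD of 6 libraries, NS-KO left of WT. The tallest bars are at 31 and 33 in both genotypes, and at 36 the NS-KO bar stands at 6.39% and the WT bar at 1.22%.

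The last base carried most of the mismatches. Of glutamate 5′ reads 58.7% matched the tRNA exactly (116124 reads), while 61294 reads differed at their last base and 20418 elsewhere. Where these last-base mismatches came from was not tested. In all 12 libraries glutamate 5′ fragments differed at the last base less often than the other nuclear 5′ fragments, in 29.9% of reads against 44.6% (exact sign-flip permutation over libraries, adjusted p = 0.000488 over 3 measures), and they were longer, at 32.2 nt against 30.7 nt (12 of 12 libraries, adjusted p = 0.000488, exact). That p is the smallest these 12 libraries can give. Most reads of the other nuclear 5′ fragments were those of Gly-GCC and Gly-CCC, with 713709 reads in all. Other families were not compared with glutamate separately in these measures.

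Summed by subtype and isodecoder, the glutamate 5′ fragments formed 13 sums, all tested. limma was run on log2 CPM, reads scaled to a fixed library total, of 500 such sums of the whole table, with TMM scaling and p-values adjusted over all 500. Over days 9 of the 13 fell in NS-KO livers and 0 rose, where 11.2% of all sums fell and 16.2% rose. All 13 estimates were below 0, with a median log2 difference of -1.21, against 0.13 over all sums. The main tRF-5c sum of Glu-CTC, the family's largest, held 31532 and 21731 on D0, 45677 and 28973 on D3, 65846 and 16292 on D27 in NS-KO livers, against 67933 and 65498 on D0, 29418 and 62282 on D3, 99756 and 85456 on D27 in WT livers, in CPM. Its WT values exceeded the NS-KO values at D0 and D27 and overlapped them at D3. Its log2 difference was -1.91 (SE 0.42, adjusted p = 0.0044). The tiRNA-5 sum of Glu-TTC, the 34-nt fragments cut in the anticodon, held 3798 and 2940.1 on D0, 4588 and 2223 on D3, 4918 and 1408 on D27 in NS-KO livers, against 4374 and 6651 on D0, 3006 and 7483 on D3, 10051 and 8691 on D27 in WT livers, in CPM. NS-KO values lay below both WT values at D0 and D27, and the log2 difference over days was -1.90 (SE 0.40, adjusted p = 0.0038).

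The short tRF-5a, which stop inside the D loop, had few reads. The tRF-5a sum listed under both isodecoders held, at its lowest, median and highest, 131, 392 and 660.5 CPM in NS-KO livers, against 282, 412 and 1533 CPM in WT livers. The ranges overlap, and the highest value was that of WT D3 replicate 1. At D0 its NS-KO libraries, with 551 and 660.5 CPM, lay above the WT libraries, with 282 and 415 CPM. At D3 they lay below, with 131 and 141 against 1533 and 409 CPM, and at D27 the genotypes overlapped. The log2 difference of this sum over days was -1.44 with TMM scaling (adjusted p = 0.0016 in limma). On library totals it was -0.60 over days (adjusted p = 0.152 in limma), and 0.79 at D0 (adjusted p = 0.302 in limma). The other 6 sums that fell were tRF-5c of both isodecoders together (-1.68), tRF-5a of Glu-TTC (-1.42), tiRNA-5 of both (-1.33), tiRNA-5 of Glu-CTC (-1.21), Other of Glu-TTC (-1.20) and tRF-5c of Glu-TTC (-1.16), with adjusted p from 0.0025 to 0.0313. The 2 tiRNA-5 calls among them were the least stable: tiRNA-5 of Glu-CTC lost its call without any 1 of 7 libraries and tiRNA-5 of both without any 1 of 6. Values for the sums that did not pass were -1.06 for Other of Glu-CTC, -0.95 for Other of both, -0.47 for tRF-5b of Glu-TTC and -0.41 for tRF-5b of Glu-CTC.

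These folds rest on the scaling. The TMM factors ran from 0.509 to 1.85 and were lowest in the 2 libraries with most reads, WT D27 replicate 2 and WT D0 replicate 1. They also differed by genotype at D0 and D27. In NS-KO livers they were 1.43 and 1.82 (D0), 0.806 and 0.960 (D3), and 1.85 and 1.68 (D27). In WT livers they were 0.509 and 0.731 (D0), 1.42 and 0.733 (D3), and 0.810 and 0.509 (D27). A higher factor lowers the scaled level of a library. On library totals alone 4 of the 13 fell, where 4.2% of all sums did: tRF-5c of Glu-CTC (-1.03, adjusted p = 0.0026), tiRNA-5 of Glu-TTC (-1.03, 0.0037), tRF-5a of Glu-TTC (-1.07, 0.0172) and tRF-5c of both (-1.01, 0.0261). On that scale the median over all 500 sums was 0.73, against 0.13 with TMM factors, and the median of the 13 was -0.34. The tRF-5c of Glu-TTC had overlapping CPM between genotypes, from 2380 to 4833 in NS-KO livers and from 1697 to 10856 in WT livers, and was not among the 4. At D0 its NS-KO libraries, with 3728 and 4304 CPM, lay above the WT libraries, with 1697 and 3338 CPM.

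**Figure D3:**
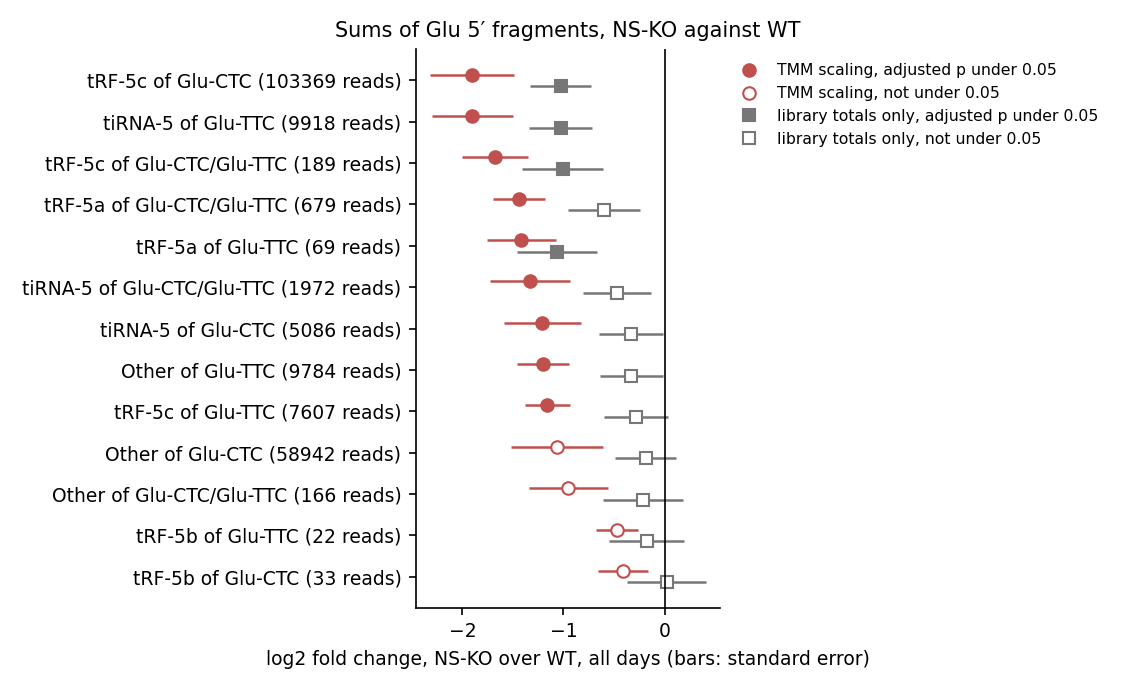
Log2 difference over days, NS-KO minus WT, with its SE, for the 13 sums, with circles for TMM scaling, squares for library totals and filled symbols for an adjusted p under 0.05. Every circle lies left of 0, and each square lies to the right of its circle.

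**Figure D4:**
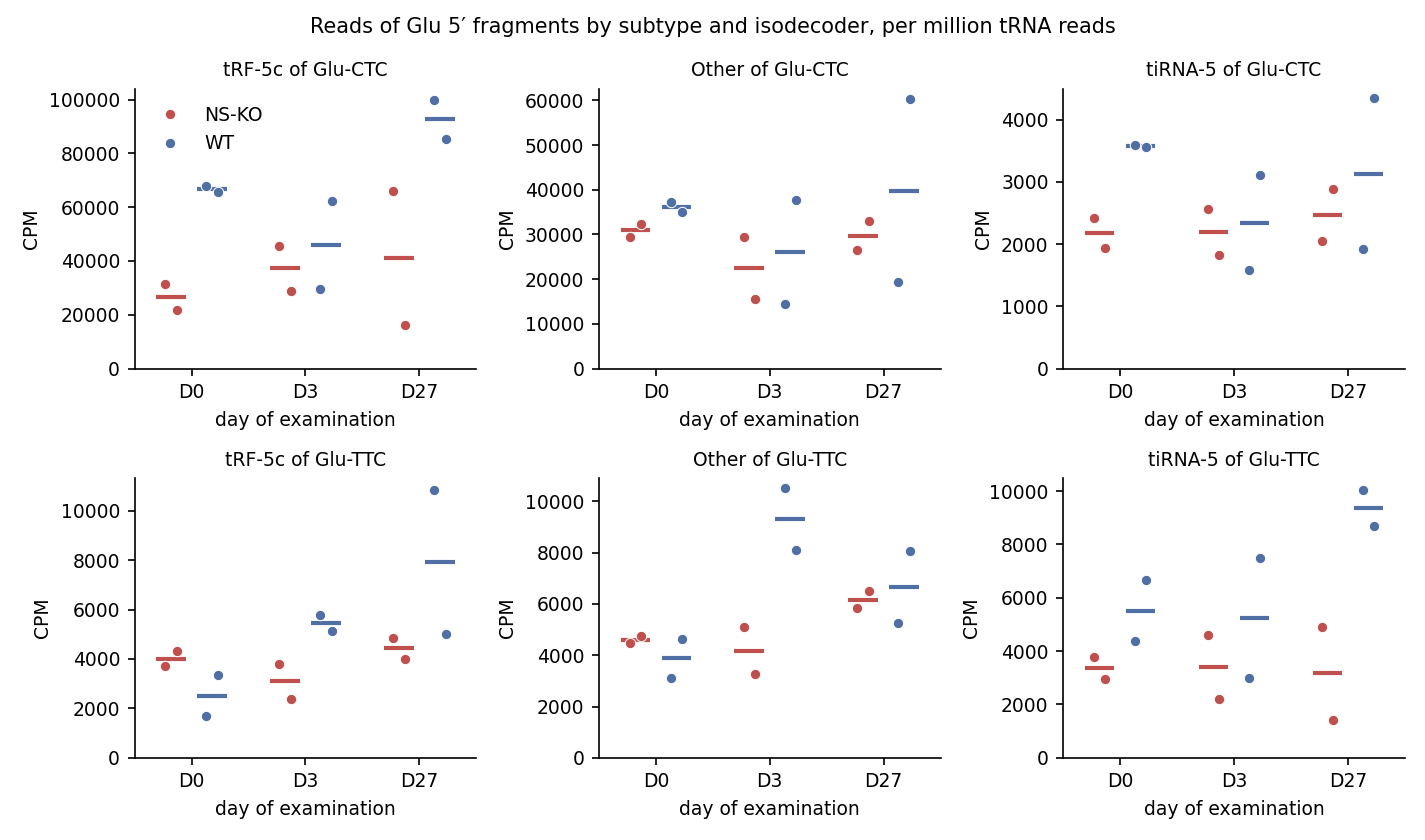
Level of the larger glutamate 5′ sums in CPM on library totals, by genotype and day, with a point for each library and a bar for the mean of 2. NS-KO points of tRF-5c of Glu-CTC and of tiRNA-5 of Glu-TTC lie below both WT points at D0 and D27.

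Single fragments were tested with limma over 22065 sequences. Of 888 members tested, which held 97.6% of the family's reads, 74 fell over days and 0 rose, where 2.23% of all tested sequences fell and 3.81% rose. The 74 held 46.0% of glutamate 5′ reads, and 649 of the 888 estimates were below 0 (median -0.35, against 0.13 over all tested). The 74 were 16 to 35 nt long, and 10 of them matched their tRNA exactly while 64 had 1 mismatch. By class they included 37 of 234 tRF-5c of Glu-CTC, 8 of 63 tiRNA-5 of Glu-TTC and 8 of 141 Other of Glu-TTC, and 2 of 34 tiRNA-5 of Glu-CTC. Leaving out 1 library moved the count: it was 22 when WT D0 replicate 1 was dropped, and 121 (37 higher, 84 lower) when NS-KO D27 replicate 2 was.

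The 34-nt fragment of Glu-TTC was counted at 1779 and 1662 on D0, 1928 and 1013 on D3, 2044 and 574 on D27 in NS-KO livers, against 2009 and 2842 on D0, 1165 and 3387 on D3, 4521 and 3887 on D27 in WT livers, in CPM. At D0 and at D27 both NS-KO libraries lay below both WT libraries, while at D3 the genotypes overlapped. Its log2 difference, with TMM scaling, was -1.84 (adjusted p = 0.0313 in limma). The CPM above are on library totals, where the fragment averaged 1500 in NS-KO livers and 2969 in WT livers. The T34C form of this fragment, a read with C in place of the T of the tRNA at its last base, fell by 2.18, also with TMM scaling (adjusted p = 0.0290 in limma). Leaving out 1 library ended the call of the exact fragment in 10 of 12 cases and of T34C in 9.

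At single days the tRF-5c sum of Glu-CTC passed at D0 and D27, and not at D3. At D0 3 of the 13 fell, where 4.6% of all sums did: tRF-5c of Glu-CTC (-2.75, adjusted p = 0.0419), tRF-5c of both (-2.16, 0.0419) and tRF-5b of Glu-TTC. The tRF-5b sum had 0 reads in both NS-KO D0 libraries and 4 and 5 in the WT D0 libraries, and 0 reads allow up to 3, so no fold is given for it. At D3 1 of 13 fell, tRF-5a of both isodecoders (-2.21, adjusted p = 0.0035), where 5% did. At D27 4 fell, where 4% did: tiRNA-5 of Glu-TTC (-3.27, adjusted p = 0.0166), tRF-5c of Glu-CTC (-2.95, 0.0334), tRF-5c of both (-2.58, 0.0184) and tRF-5c of Glu-TTC (-2.19, 0.0068). The median of the 13 was -1.82 for D0 (0.03 over all sums), -0.31 for D3 (0.16) and -1.66 for D27 (0.03). On library totals these medians were -0.70 for D0 (1.07 over all sums), -0.47 for D3 (-0.03) and -0.21 for D27 (1.09). On that scale 1, 2 and 2 of the 13 fell at D0, D3 and D27, where 7, 21 and 13 of all 500 sums did. tRF-5c of Glu-CTC stayed called there at D0 (-1.35, adjusted p = 0.0331 in limma) and D27 (-1.49, 0.0170). So did tiRNA-5 of Glu-TTC at D27 (-1.82, 0.0054) and tRF-5a of both at D3 (-2.43, 0.0010). Calls were lost for tRF-5c of both at D0 (-1.04, 0.220) and D27 (-1.51, 0.0720). They were also lost for tRF-5c of Glu-TTC at D27 (-0.74, 0.270) and tRF-5b of Glu-TTC at D0 (0.0891). With 2 libraries a group, limma took the spread from all groups together. The 8 calls with TMM scaling became 3 without either WT D0 library and 13 without WT D3 replicate 1.

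Injury was examined within each genotype. None of the 13 sums passed in NS-KO D3 against NS-KO D0, NS-KO D27 against NS-KO D0, WT D3 against WT D0 or WT D27 against WT D0 (limma). At an unadjusted p under 0.05 the numbers higher and lower were 1 and 1, 1 and 0, 0 and 3, and 1 and 1 of the 13, where they were 107 and 25, 24 and 38, 22 and 10, and 23 and 17 of all 500 sums. Median log2 differences were 0.73, 0.01, -0.92 and -0.01. Among all 500 sums 62 rose and 8 fell in NS-KO D3, and 0 were called in the other 3. Of the 888 single members 5 rose in NS-KO D3 against NS-KO D0 (where 10.4% of all tested rose) and 2 fell (0.825%), and 0 were called in the other 3 comparisons. At an unadjusted p under 0.05 the members higher and lower numbered 23 and 32 in NS-KO D27 (987 and 1021 of all 22065 tested), 19 and 50 in WT D3 (368 and 380 of all) and 127 and 11 in WT D27 (571 and 297 of all). These single-fragment calls depended on the fit. In NS-KO D3 they were 1 higher and 13 lower on library totals alone, 0 higher and 3 lower with TMM factors from the sums, 24 and 14 with voom weights, and 2 and 53 without NS-KO D0 replicate 1. In NS-KO D27 they were 69 higher and 6 lower without NS-KO D27 replicate 2 and 4 and 53 without NS-KO D0 replicate 1, and in WT D27 voom weights gave 32 higher and 0 lower.

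Those few calls had few reads and were chosen for naming after their values were seen. The 5 that rose in NS-KO D3 were 4 fragments of Glu-CTC and the 36-nt fragment of tRNA-Glu-TTC-3-1, all with 0 reads in both NS-KO D0 libraries. The 36-nt fragment had 5 and 3 reads in the NS-KO D3 libraries. No fold is given for them, since 0 reads allow up to 3. The 2 that fell had 1 read in each NS-KO D0 library and 0 in all others, so they passed the filter on low values only through the group where they were high, and their direction says nothing more. In NS-KO against WT at D3, 3 members rose, where 10.3% of all tested rose, and 9 fell, where 0.553% did. The 3 that rose were fragments of tRNA-Glu-TTC-3-1, of 34 nt (144.5 and 62.8 CPM in NS-KO D3 livers, against 0 and 5.17 CPM in WT D3 livers), 30 nt (63.2 and 62.8 CPM in NS-KO D3 livers, against 0 and 10.3 CPM in WT D3 livers) and 36 nt, with 5 and 3 reads in NS-KO D3 livers and 0 in WT D3 livers. Adjusted p in limma were 0.0261 for the 34-nt and 0.0208 for the 30-nt fragment. The 36-nt fragment reached 20 CPM in NS-KO libraries alone, with a highest WT value of 10.9 CPM. It thus passed the filter only through the genotype where it was high, and its direction says nothing more. Of the 9 that fell, 5 were 33-nt fragments of Glu-TTC, 2 were 16-nt tRF-5a and 2 were 32-nt tRF-5c, with adjusted p from 0.0074 to 0.0399 (limma). In 8 of the 9 the higher WT value was that of WT D3 replicate 1, the library that stood apart. Without that library 0 members rose and 9 fell, and without NS-KO D3 replicate 2 the numbers were 1 and 2.

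The difference between genotypes was itself compared between days. At D3 minus D0, 1 of the 13 sums differed, tRF-5b of Glu-TTC with 22 reads in all (higher, adjusted p = 0.0196 in limma), where 8.4% of all sums differed in that direction. No size is given for it, as both NS-KO D0 libraries had 0 reads. On library totals alone it lost its call (adjusted p = 0.175), and tRF-5a of both isodecoders was called in the other direction (-3.22, adjusted p = 0.0074, against -1.65 and 0.150 with TMM factors). Of the single members 3 did, where 4.89% of all tested did, all of Glu-CTC and with 0 or 1 read over both NS-KO D0 libraries. The count of members higher was 0 on library totals, with reads outside the Gly-GCC and Gly-CCC 5′ fragments as totals, with TMM factors from the sums, with the replicate block, and without either WT D0 library. The median over the 13 sums was 1.73, against 0.22 over all sums, and 12 of the 13 were above 0. On library totals the median differences were 0.12 for the 13 and -1.02 over all sums.

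Reads from the rest of the glutamate tRNAs were also counted. Fragments of nuclear Glu-CTC and Glu-TTC that began further in held 24430 ± 10408 CPM in NS-KO livers and 9295 ± 4071 CPM in WT livers (SD, n = 6 each). The 5′ fragments were 76.5 ± 8.43% of all reads of these tRNAs in NS-KO livers and 92.1 ± 6.18% in WT livers, a difference of -15.7 points (exact permutation p = 0.0278), and the ranges, 60.7 to 83.4% in NS-KO livers and 79.7 to 96.3% in WT livers, overlapped. This comparison was added after the data had been seen, and its p was 0.0556 without WT D3 replicate 2 or either WT D27 library. With TMM scaling in place of library totals, 0 of 6 tested sums of these fragments rose over days and 1 fell. Of all sums 16.2% rose and 11.2% fell. The sum that fell was tRF-3a of Glu-TTC (log2 difference -1.71, adjusted p = 0.0021 in limma), a short fragment from the 3′ end. All tRF-3a held 156 reads, against 20643 in Other. Log2 differences were 0.57 for Other of Glu-CTC and 0.63 for Other of Glu-TTC (adjusted p = 0.0973 and 0.0692 in limma). Among other nuclear 5′ fragments, 7 of 14 sums of Gly-GCC and Gly-CCC fell and 1 rose (median -1.03), and 12 of 110 sums of the remaining isodecoders fell and 5 rose (median -0.12).

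The 5′ fragments whose level was most like that of the glutamate family over the 12 libraries were those listed under Val-AAC and Val-CAC (Pearson r of log2 CPM 0.910), Gly-CCC and Gly-GCC (0.7997) and Ala-CGC with Glu-CTC (0.654), of 15 sets. The last set is not a separate family, since its sequences were listed under Glu-CTC too. Of its 8827 reads 8349 were of 1 sequence of 30 nt. The correlations describe these libraries, which share totals and differ in depth.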

How the data were processed

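Mouse liver RNA was pretreated to remove end and base modifications that block library preparation, and small RNA libraries, size-selected for RNAs of about 14 to 40 nt, were sequenced. Per the labels, FastQC, cutadapt and Bowtie were used by the authors (versions not given in the sources used here), with 1 mismatch allowed. The deposited values are read counts of each sequence under each tRNA it matched, and each distinct sequence was counted once. Each of the 12 columns equals its own sample file, and 0 sample columns were left unused. The labels give ages of 8 to 12 weeks, and of 9 to 12 weeks at injection.

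The members and lists were chosen with earlier results of these data known. Library totals ran from 46937 to 221446 reads in NS-KO livers and from 81515 to 275568 in WT livers. WT D3 replicate 1 stood apart from the other WT libraries in the shares reported. A count of 0 allows up to 3 reads, for counting error only, since reads carry no molecular identifiers. Sequences with at least 20 CPM in 1 library, and sums by subtype and isodecoder with at least 10 reads, were tested on log2 CPM (prior count 2, TMM factors computed here, 1 mean per group) with limma and Benjamini-Hochberg adjustment over all features at 0.05. The design named edgeR, which was not run because the table failed a unit check as counts through its text lines. Shares were tested by two-sided exact permutation of genotype within days. Named fragments were the 10 most read, the most read of each subtype and isodecoder class, and the 5 largest called changes. The sequences of tRNA-Glu-CTC and of its fragments, and most values of those single fragments, are not reported here. Positions are counted from 1 at the 5′ end of the tRNA. Scripts were tested on simulated data. Alternatives covered scaling, filter, prior count, voom weights, exact matches, start position, a replicate block and each library left out. limma 3.58.1 ran in R 4.3.3. Tables and figures were made in Python 3.11.15 with matplotlib 3.10.9, pandas 2.3.3 and numpy 2.4.6.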

Additional observations from a re-analysis of the deposited data

Results flagged for a closer look

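For 5 values the difference between genotypes was itself different at D3 and at D0, by the interaction term of the limma fit. The log2 values, as the genotype difference (NS-KO minus WT) at D3 minus that at D0, were 2.10 for the tRF-5b sum of Glu-TTC, 2.40, 2.51 and 2.72 for 3 single fragments of Glu-CTC and -1.96 for the tRF-3b sum of Glu-TTC, a fragment from the 3′ end of the tRNA. The first 4 had 0 or 1 read over both NS-KO D0 libraries, so these are fitted values that depend on the prior count, and no fold can be read from them. Their adjusted p, over all features tested, were 0.0196, 0.0362, 0.0347, 0.0423 and 0.0368. The call of the tRF-5b sum was lost without any 1 of 7 libraries. On library totals alone neither the tRF-5b sum (adjusted p = 0.175) nor any single fragment was called higher.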

How the results depend on the processing

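The 74 single fragments called over days became 17 with library totals only (2 higher, 15 lower), 142 with the other filter, 218 with voom weights (6 higher, 212 lower) and 18 among perfect matches. Leaving out 1 library gave 22 to 121. The 9 sums called over days became 4 with library totals only and 7 to 11 without 1 library. The 8 calls at single days became 5 with library totals only, 13 with reads outside the Gly-GCC and Gly-CCC 5′ fragments as totals, 4 with the other filter and 3 to 13 without 1 library. Among those 5, tRF-5a of Glu-TTC at D3 (-1.88, adjusted p = 0.0392 in limma) was not one of the 8. The 0 calls by injury became 1 with library totals only, with reads outside the Gly 5′ fragments, with a prior count of 0.5 and with TMM factors from sums (chosen after seeing the data), and 0 to 1 without 1 library.

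The share of all tRNA reads, -4.76 points, ran from -5.73 to -3.79 without 1 library. It turned to 1.38 points among mature nuclear tRNA reads and to 9.42 among nuclear 5′ fragments. The make-up gave 0 to 2 calls without 1 library, with 2 without WT D27 replicate 1. On library totals the sign turned for tRF-5b of Glu-CTC (0.019) and 1 single fragment of Glu-CTC (0.15), neither called.

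Replicates of one number deviated together in 1 of 15 pairs (r over 0.1, range -0.17 to 0.29). Such correlations cannot show whether replicates of one number shared a litter, batch or day, and the labels do not say. With the number as a replicate block, the share kept -4.76 points with an exact permutation p of 0.0625, single-day calls became 5, and 9 sums were called over days. edgeR was not run. The least read libraries, both of NS-KO livers, held 46937 and 46973 reads, so 1 read there was over 20 CPM.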
